A study of Mus musculus with 32 samples.

Results

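Osteoclast-like cells made up 226 of the 14380 cells with at least 3 unique molecular identifiers (UMIs) of *Tyrobp* in single-cell RNA-seq (scRNA-seq) of mouse marrow stromal cells grown in an osteogenic medium (called BMSC-OBs), and 226 of 107853 barcodes in all. *Tyrobp* encodes an adaptor of activating receptors and marks myeloid cells. A cell was counted as a member when it held 400 to 6200 genes, at most 10% mitochondrial UMIs, at least 3 UMIs of *Tyrobp*, UMIs of at least 3 of the 6 genes *Acp5*, *Mmp9*, *Ocstamp*, *Dcstamp*, *Calcr* and *Oscar*, and less than 1% of its UMIs from the granule genes *S100a8*, *S100a9*, *Camp* and *Ngp*. The other 14154 *Tyrobp* cells were the comparison, and the 12760 of them that also held less than 1% granule UMIs (the granule-poor *Tyrobp* cells) were the like comparison.

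The cells came from 77 Diversity Outbred (DO) mice, an outbred stock descended from several inbred founder strains. Marrow of the femurs was grown to confluence for 3 days and then kept for 10 days in a medium with ascorbic acid, β-glycerophosphate and dexamethasone. Cells of 4 or 5 mice were combined into each of 16 pools, and every pool was sequenced in 2 runs, of which the first was used and the second served as a repeat. All pools had the same treatment, so the design held 1 group, and mouse age is not given in the sources used here. No recombinant M-CSF or RANKL is named in the medium, and the pool, not the cell, was the unit of replication, with cells of a pool not assigned to mice here.

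Osteoclasts are the multinucleated cells that resorb bone. They form when precursors of the monocyte and macrophage lineage receive CSF1 and RANKL (encoded by *Tnfsf11*), fuse with each other, attach to bone through an integrin and an actin ring, and secrete acid and proteases into the sealed space. RANKL acts through its receptor RANK (*Tnfrsf11a*) and the transcription factor NFATc1, while osteoprotegerin (*Tnfrsf11b*), a decoy receptor made by stromal cells, blocks it. The number of nuclei in a cell was not measured here.

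The genes that chose the members are classical products of this lineage. *Acp5* (chr9:22126727-22135711, minus strand, GRCm38) encodes tartrate-resistant acid phosphatase. *Mmp9* (chr2:164940780-164955850, plus strand) encodes a secreted gelatinase. *Ocstamp* (chr2:165393760-165400405, minus strand) and *Dcstamp* (chr15:39745930-39760938, plus strand) encode transmembrane proteins needed for fusion. *Calcr* (chr6:3685680-3764714, minus strand) encodes the calcitonin receptor, and *Oscar* (chr7:3609813-3616157, minus strand) a receptor that signals through an adaptor of the same kind as *Tyrobp*. NFATc1, MITF with its relatives, AP-1 and PU.1 are the factors known to act on many osteoclast promoters.

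The promoters of 2 of these genes and of *Ctsk*, the gene of the collagen-degrading protease cathepsin K that the rule did not use, are shown because they carry letters of these factors' motifs. Each runs from 250 bases before to 50 bases after an annotated start (RefSeq, GRCm38.p6), 5′ to 3′ on the gene's strand, and capitals mark matches on either strand to TGGAAA (NFAT), CATGTG or CACGTG (the E-box of MITF and TFE), TGANTCA (AP-1) or GAGGAAG (PU.1).
*Acp5*, chr9:22130549-22130848, minus strand: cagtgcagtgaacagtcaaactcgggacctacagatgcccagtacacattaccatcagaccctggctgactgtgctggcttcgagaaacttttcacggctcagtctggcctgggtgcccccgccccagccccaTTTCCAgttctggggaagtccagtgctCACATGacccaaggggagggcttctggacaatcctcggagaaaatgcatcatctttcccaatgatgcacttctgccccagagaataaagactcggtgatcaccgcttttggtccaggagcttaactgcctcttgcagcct
*Oscar*, chr7:3616108-3616407, minus strand: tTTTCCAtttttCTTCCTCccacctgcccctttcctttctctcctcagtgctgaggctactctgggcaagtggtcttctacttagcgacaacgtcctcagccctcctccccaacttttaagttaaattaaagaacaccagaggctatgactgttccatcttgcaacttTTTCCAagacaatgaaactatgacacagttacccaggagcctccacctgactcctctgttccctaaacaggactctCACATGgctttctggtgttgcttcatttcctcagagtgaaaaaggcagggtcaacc
*Ctsk*, chr3:95498960-95499259, plus strand: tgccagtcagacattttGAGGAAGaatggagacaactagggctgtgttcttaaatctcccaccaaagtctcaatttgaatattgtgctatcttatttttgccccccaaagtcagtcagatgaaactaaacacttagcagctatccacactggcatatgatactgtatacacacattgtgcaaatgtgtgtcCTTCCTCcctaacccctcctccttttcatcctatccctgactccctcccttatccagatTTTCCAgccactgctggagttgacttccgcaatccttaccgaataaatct
The *Acp5* window, at 1 of its 3 annotated starts, held 1 NFAT and 1 E-box match, and the windows at its other starts held none of the motifs. The *Oscar* window held 2 NFAT, 1 E-box and 1 PU.1 match, and the *Ctsk* window 1 NFAT and 2 PU.1 matches. None of the 3 held an AP-1 match, and the windows of *Calcr* (2 starts) and *Ckb* held none of the 4 motifs. Of 32851 promoter windows of this length, 21.4% held the NFAT letters, 20.4% an E-box, 7.81% the AP-1 letters and 13.6% the PU.1 letters, so matches are common and are given as a description.

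Depth and quality of the members stood apart from those of the comparison cells. Total counts were 53990642 to 100777353 UMIs per pool. Members held a median of 12024.5 UMIs and 3271.5 genes, against 6498.5 UMIs and 2257 genes in granule-poor *Tyrobp* cells. The rule counts detected genes, so a deeper cell can pass it more easily. Cells with at least 3000 UMIs were thinned to 3000, and those with fewer were left out. The rule, with its *Tyrobp* limit, then kept 110 of 8381 *Tyrobp* cells, a share of 1.31% next to 1.57% without thinning. These shares have unlike denominators, and 205 members had held enough UMIs to be thinned. The doublet score marked 37 members (16.4%), against 12.8% of granule-poor cells. Of the 90924 barcodes within the limits on genes and mitochondrial UMIs, 85819 were not marked, so both classes were marked more often than barcodes at large. Of the 226 barcodes, 182 passed the same rule in the second run, which also gave 226 members. The barcode of 12 members occurred in another pool too, where the droplet held at most 1 of the 6 genes.

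Every one of the 16 pools held members, but unevenly. Without called doublets 15 pools held members, and 14 did with the rule applied after thinning to 3000 UMIs. Pool 1 held 91 of them (40.3%) and pool 2 held 37, so that these pools gave 56.6% of all members. Pools 13, 9, 8 and 12 held 21, 13, 11 and 11, pools 5, 4, 6 and 14 held 9, 8, 8 and 5, pool 18 held 3, pools 3, 10, 11 and 17 held 2 each, and pool 7 held 1. As a share of *Tyrobp* cells, members ranged from 0.135% in pool 7 to 6.94% in pool 1, with a median of 0.872% over pools. Thinned to 3000 UMIs, pool 4 stood highest with 8 of 109 cells (7.34%, exact interval 3.22% to 14.0%), ahead of pool 1 with 40 of 789 (5.07%, 3.65% to 6.84%), and these intervals overlapped. The exact (Clopper-Pearson) 95% binomial interval was 5.62% to 8.45% in pool 1, 2.53% to 6.14% in pool 13, 1.21% to 2.36% in pool 2 and 0.00342% to 0.75% in pool 7. The intervals of pools 1 and 7 lay far apart, whereas those of most pools with few members overlapped, and all of them cover counting error only.

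**Figure D1:**
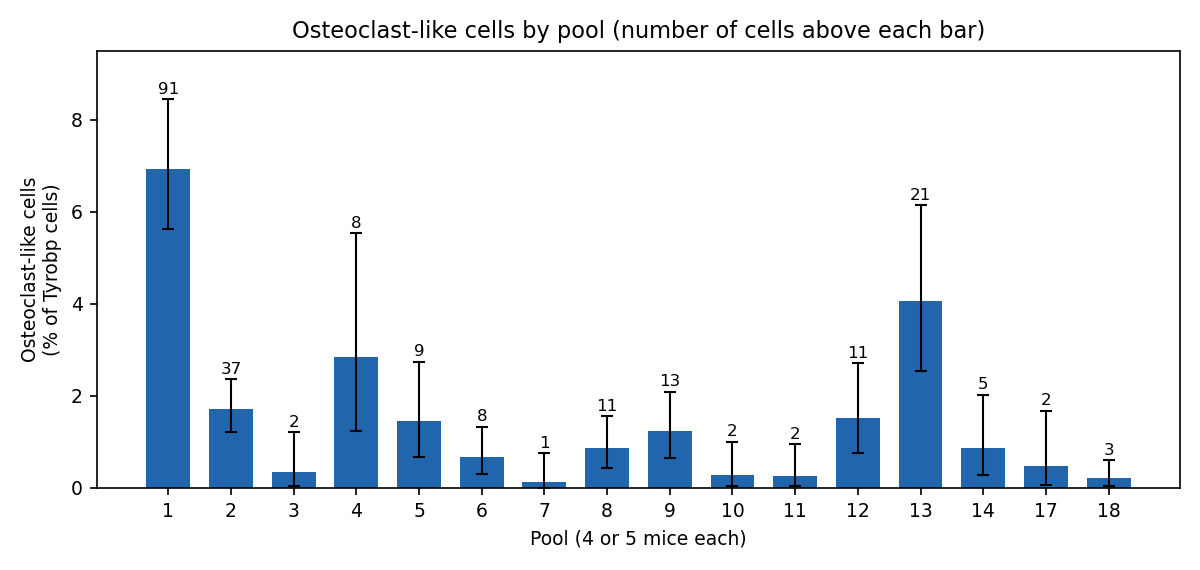
Share of osteoclast-like cells among *Tyrobp* cells (%, vertical axis) in each of the 16 pools (horizontal axis). Bars are shares, lines are exact 95% binomial intervals, and numbers are cells; pool 1 stands highest at 6.94% with 91 cells, followed by pool 13 at 4.06% with 21.

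Where a pool mixed mice of both sexes, *Xist* and Y-linked UMIs bore on which sex a cell came from. In pool 8, 608 granule-poor cells held *Xist* and no Y-linked UMI and 173 the reverse, while 10 members held *Xist* alone and 0 Y-linked UMIs alone. In pool 5 it was 48 and 340 granule-poor cells, and 0 and 7 members. Members of both kinds were found in pools 6 (7 and 1), 9 (2 and 7), 12 (6 and 4), 13 (5 and 6) and 14 (2 and 1). Both marks were held by 3 members of pool 13 and by 1 each of pools 5, 8 and 11, and by up to 124 granule-poor cells of a pool (pool 6), so such UMIs do not place every cell. Members of pools 1 and 2 with such UMIs were all of the Y-linked kind (63 and 29 cells), and 0 granule-poor cells there held *Xist* alone.

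Of the 6 rule genes, *Acp5* was detected in 226 of 226 members, *Mmp9* in 215, *Dcstamp* in 178, *Calcr* in 128, *Ocstamp* in 108 and *Oscar* in 87. The most frequent combinations were *Acp5* with *Mmp9* and *Dcstamp* alone (36 cells) and all 6 genes together (34 cells). In the rule's terms, 80 members held 3 of the 6 genes, 62 held 4 and 50 held 5. Just outside the rule stood 613 granule-poor cells with 2 of the 6 genes, 604 of which held *Acp5* and 361 *Mmp9*, with a median of 8674 UMIs, and just inside it the 80 cells with 3, with a median of 10713.5. No cell with 3 or more of the 6 genes was turned away for its granule UMIs.

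These genes differed in how far they were shared with other *Tyrobp* cells. *Acp5* had UMIs in 60.3% of granule-poor cells and in 13.1% of the stromal reference cells (56611 cells with no *Tyrobp* and at least 5 UMIs of *Col1a2*, median 13464 UMIs), a cell type that should lack it. *Mmp9* had UMIs in 3.44% of granule-poor and 2.27% of stromal cells. *Calcr* was found in 0.0549% and 0.0671%, and *Oscar* in 0.172% and 0.424%, so for these the comparison cells were at the background of the stromal cells. Thinned to 3000 UMIs, which left 205 members, 11198 granule-poor and 45140 stromal cells, *Calcr* was detected in 31.2% of members and 0.0357% of granule-poor cells, and *Acp5* in 98.5% and 43.2%. Measures of these 6 genes follow from the rule and carry no test.

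Genes that the rule did not use were compared in the 6 pools with at least 10 members (pools 1, 2, 8, 9, 12 and 13, 184 members). UMIs were summed per pool and class, and members were compared with the 6433 granule-poor *Tyrobp* cells of the same pools in an edgeR quasi-likelihood fit that blocked on the pool. Levels are UMIs per 1000000 UMIs of a class in a pool (CPM), not corrected for gene length, and are compared between classes and not between genes. Of 10110 genes tested, 955 were higher in members (9.45%) and 946 lower (9.36%) at an adjusted p of at most 0.05, and the median log2 fold change of all genes tested was -0.03. The counts in each list below are to be read against these percentages. Members and comparison cells came from the same droplet runs, and members were picked by transcripts of the same cells, so these values say what else such cells held.

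Genes of the resorption machinery stood higher in members, with the lysosomal cathepsins B and L as exceptions. Of 15 listed genes, all tested, 11 rose, 2 fell and 2 were not called, with a median log2 fold change of 1.94. *Rab38* is counted among the 11, but it passed the filter on low counts through the members, so its higher level is no test. *Ctsk* had 1756 CPM in the lowest pool, a median of 5994 and 9579.7 in the highest among members, and 138, 374 and 988 CPM in granule-poor cells. Every pool's members lay above every pool's granule-poor cells, the lowest members' value being that of pool 12. The log2 fold change was 3.97 ± 0.27 (SE derived from the edgeR F statistic, n = 6 pools, edgeR adjusted p = 6.5e-08). *Slc9b2*, which encodes a sodium-proton exchanger of the osteoclast, lay at 276, 430.4 and 572 CPM against 2.62, 6.65 and 14.5 CPM. It had the largest change of the list at 6.04 ± 0.29.

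*Snx10*, a sorting nexin whose loss causes osteopetrosis, lay at 372, 706 and 1110.4 CPM in members and at 73.2, 87.1 and 96.4 CPM in granule-poor cells, again without overlap. *Car2*, the carbonic anhydrase that supplies protons, rose by 2.79 ± 0.41 on the log2 scale, from 2.31, 4.96 and 40.5 CPM to 20.4, 44.6 and 210.5 CPM. Its groups overlapped, because granule-poor cells of pool 8 reached 40.5 CPM, and it was not called without the replicate block (2.32). *Slc4a2*, the basolateral anion exchanger that removes bicarbonate, rose by 2.32 ± 0.25. The chloride transporter *Clcn7* and its partner *Ostm1* rose by 1.47 ± 0.23 and 1.67 ± 0.24. *Ctsb* and *Ctsl*, general lysosomal proteases, fell by 1.72 ± 0.21 and 1.88 ± 0.18 on the log2 scale, with 586 to 3146 CPM of *Ctsb* in members and 3394 to 6022 CPM in granule-poor cells. *Plekhm1*, a lysosome trafficking adaptor, and *Rab7* had log2 fold changes of 0.62 and 0.27 and were not called (adjusted p = 0.10 and 0.29).

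The vacuolar proton pump (V-ATPase) acidifies the resorption space. Of its 17 listed subunits and accessory proteins, 13 rose, 1 fell and 3 were not called, with a median of 1.25. The membrane subunit *Atp6v0d2*, known for its high level in osteoclasts, lay at 461, 789 and 977 CPM in members and 37.6, 119 and 217 CPM in granule-poor cells, and it rose by 2.70 ± 0.19 (adjusted p = 6.5e-08). *Tcirg1*, which encodes the osteoclast a3 subunit, rose by 1.18 ± 0.15, from 152, 213 and 385 CPM to 298, 555 and 853 CPM. The related a1 subunit *Atp6v0a1* fell by 2.08 ± 0.26 on the log2 scale, with 4.65 to 28.6 CPM in members against 48.0 to 103 CPM, and the a2 subunit *Atp6v0a2* was not called at 0.39. *Atp6v0d1*, the widely expressed relative of *Atp6v0d2*, was not called at -0.22 (139 to 211 CPM against 169 to 261 CPM). The soluble V1 subunits that rose did so by 0.78 (*Atp6v1h*) to 1.69 (*Atp6v1d*). In the fits after thinning to 3000 UMIs, members were still those chosen on the full counts. There 11 of 16 were higher and 1 lower (all genes 6.08% and 9.78%), with a median of 0.87, and *Tcirg1*, *Atp6v1h* and *Atp6ap1* were not called (0.53, 0.51 and 0.50).

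**Figure D2:**
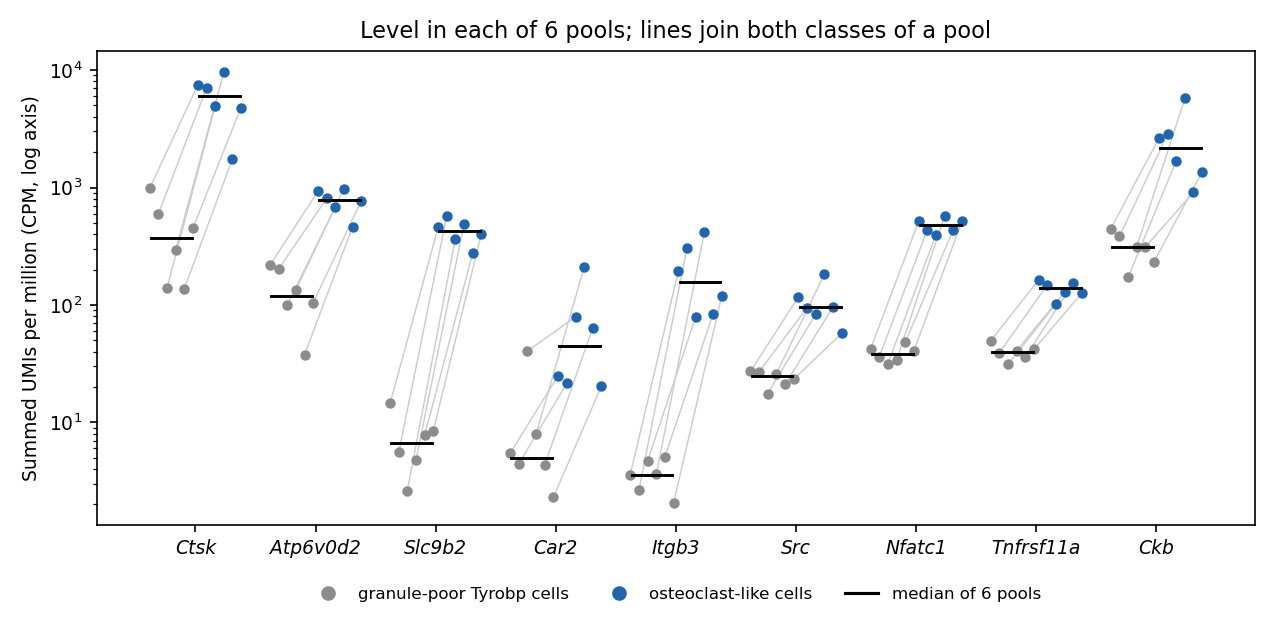
Level of 9 osteoclast genes that the rule did not use (UMIs per 1000000 UMIs of a class in a pool, log axis) in granule-poor *Tyrobp* cells and osteoclast-like cells. Each point is 1 of 6 pools, a line joins both classes of a pool and a black bar is the median. The 9 genes were picked from lists that also hold genes that fell, and all 54 lines rise. The groups overlap only for *Car2*. Of 10110 genes tested, 438 had every pool's members above every pool's granule-poor cells, and 584 had them below.

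Fusion and adhesion genes moved in both directions. Of 17 listed genes, 15 were tested (*Siglec15* and *Tm4sf19* were too low), of which 5 rose, 5 fell and 5 were not called, with a median of 0.05. *Itgb3*, the β3 chain of the vitronectin receptor by which osteoclasts attach, lay at 79.0, 157 and 416 CPM in members. In granule-poor cells it lay at 2.05, 3.59 and 5.09 CPM, a log2 difference of 5.80 ± 0.35. It is counted among the 5 that rose, but it passed the filter on low counts through the members, so its higher level is no test. Its partner *Itgav* rose by 1.31 ± 0.16, and *Itgb5*, the β5 chain that pairs with the same partner in macrophages, fell by 0.81 ± 0.18 on the log2 scale. The kinase *Src*, which organizes the ruffled border, rose by 2.13 ± 0.19, and *Pstpip1*, an actin-associated adaptor, by 3.42 ± 0.22. *Adam8* fell by 2.14 ± 0.23 and the tetraspanin *Cd81* by 1.26 ± 0.16 on the log2 scale, while *Cd44*, *Cd47*, *Cd9*, *Vcl* and *Gsn* were not called. Without pool 1 and without pool 13 the number that fell was 3 (all genes 8.05% and 8.76%), since *Adam12* (-0.85 and -1.08) and *Sirpa* (-0.50 and -0.46) were not called there. *Siglec15*, a sialic acid receptor of the osteoclast, had UMIs in 5.75% of members, 0.0235% of granule-poor and 0% of stromal cells.

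Most receptors, adaptors and kinases of RANK signaling were not called. Of 15 listed genes, 4 rose, 2 fell and 9 were not called, with a median of -0.16. *Tnfrsf11a* lay at 102, 139 and 163 CPM in members and 31.1, 40.0 and 49.5 CPM in granule-poor cells, without overlap, and rose by 1.81 ± 0.15 (adjusted p = 4.4e-07). *Csf1r*, the CSF1 receptor, rose by 0.62 ± 0.14, *Traf6*, which couples RANK to its kinases, by 0.73 ± 0.23 and *Lat2* by 0.92 ± 0.19. The call of *Traf6* was lost by DESeq2 and without any one of pools 1, 2, 8, 9 and 13 (log2 fold change 0.60, 0.60, 0.61, 0.77 and 0.78). With both classes limited to cells with 10 or more UMIs of *Tyrobp*, 3 of the 14 listed genes then tested were higher and 3 lower (all genes 10.4% and 10.9%), and *Csf1r* was not called (0.29). Thinned to 3000 UMIs, 1 was higher, *Tnfrsf11a*, and 4 lower of 14, with a median of -0.46, and *Csf1r*, *Traf6* and *Lat2* were not called (0.32, 0.67 and 0.59). *Nfkb1* fell by 0.73 ± 0.17 and the receptor *Trem2* by 0.77 ± 0.19 on the log2 scale. *Nfkb1* was not called with at least 4 of the 6 rule genes (-0.40), nor *Trem2* without the replicate block (-0.63). The kinases *Syk* and *Btk* and the adaptor *Fcer1g* were not called (-0.40, -0.26 and 0.01).

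Among 16 listed transcription factors of the lineage, 15 were tested (*Batf3* was too low), 8 rose, 3 fell and 4 were not called, with a median of 0.64. *Nfatc1* lay at 395, 475 and 572 CPM in members and at 31.6, 38.4 and 48.0 CPM in granule-poor cells. The groups lay far apart, and it rose by 3.66 ± 0.15 (adjusted p = 6.3e-10). The coactivator *Ppargc1b*, which promotes mitochondrial biogenesis, rose by 4.91 ± 0.28, from 1.80, 2.14 and 2.52 CPM to 32.5, 58.2 and 135 CPM. It is counted among the 8 that rose, but it passed the filter on low counts through the members, so its higher level is no test. The AP-1 family members *Jdp2* and *Fosl2* rose by 2.25 ± 0.17 and 2.19 ± 0.16, and *Bhlhe40* by 1.14 ± 0.14. *Spi1*, the gene of PU.1, rose by 0.64 ± 0.13, whereas *Mitf* and *Tfec* were not called (0.11 and -0.28). *Junb*, *Mef2c* and *Myc* fell by 0.78 ± 0.14, 0.75 ± 0.18 and 0.88 ± 0.24 on the log2 scale. Thinned to 3000 UMIs, 5 of the 15 were higher and 2 lower, with a median of 0.12, and *Spi1*, *Mef2c* and *Myc* were not called (0.12, -0.74 and -0.94). *Spi1* was not called either with 10 or more UMIs of *Tyrobp* in both classes (0.34), nor *Mef2c* and *Myc* in the 3 pools with at least 20 members (-0.50 and -0.65).

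Genes known to restrain osteoclast formation were lower in members or not called, except for 1. Of 12 listed, 6 fell, 1 rose and 5 were not called, with a median of -0.71. *Irf8*, a repressor of *Nfatc1*, lay at 4.65, 23.8 and 32.0 CPM in members and at 76.1, 109.7 and 158 CPM in granule-poor cells, a log2 difference of -2.12 ± 0.28 (adjusted p = 4.5e-05). *Socs3* fell by 1.61 ± 0.24, *Tnfaip3* by 1.30 ± 0.24 and *Ifngr1* by 1.08 ± 0.17 on the log2 scale. *Cyld*, a deubiquitinase that limits RANK signaling, rose by 1.11 ± 0.24. *Bcl6*, *Id1*, *Id2*, *Zeb1* and *Socs1* were not called.

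**Figure D3:**
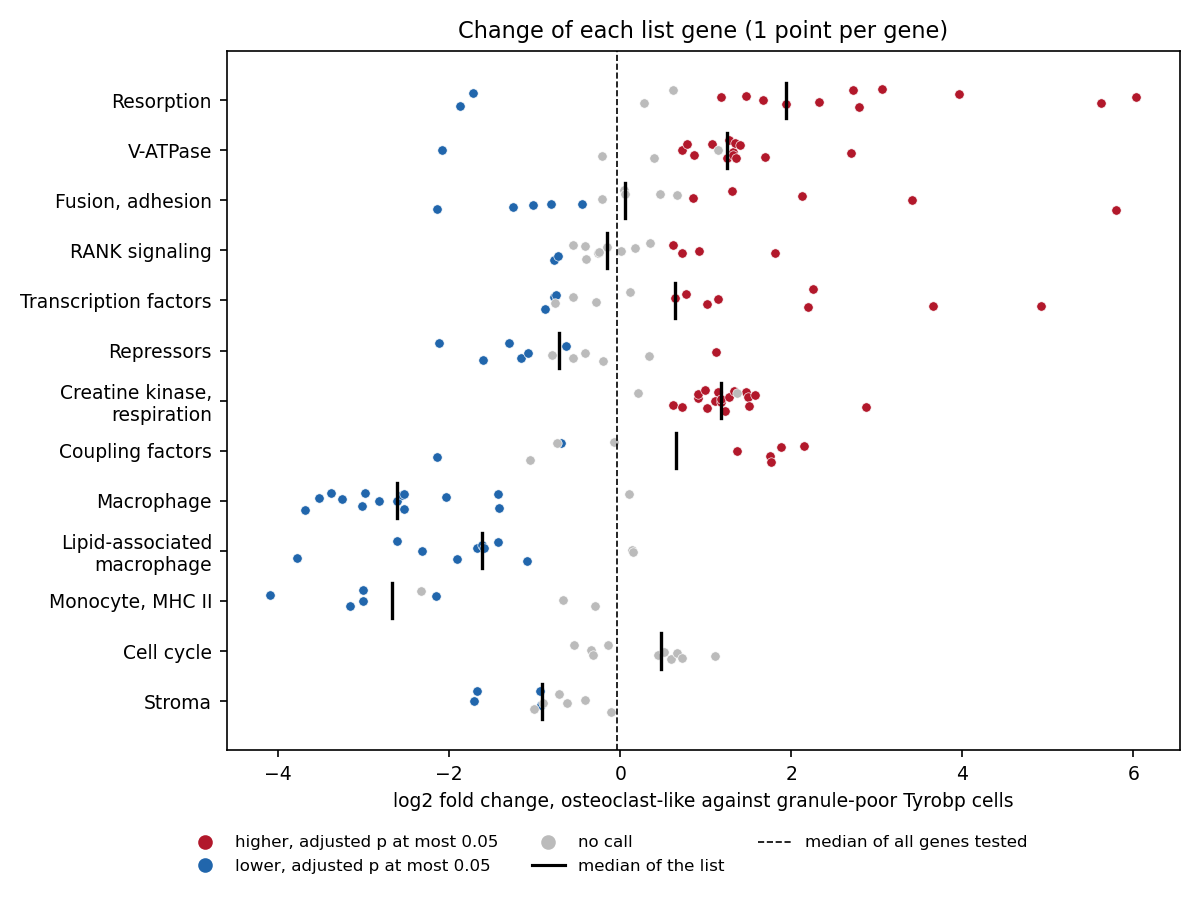
Log2 fold change of each listed gene (horizontal axis) in osteoclast-like against granule-poor *Tyrobp* cells, by list. Red and blue points passed the test as higher and lower, grey points did not, black bars are list medians and the dashed line is the median of all genes tested at -0.03; the resorption list has its median at 1.94 and the macrophage list at -2.60.

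Genes of energy supply rose almost throughout. Of 22 listed, 20 were tested, and 18 rose, 0 fell and 2 were not called (*Cox6a2* and *Tfam*), with a median of 1.18. *Ckb*, the brain-type creatine kinase, lay at 910.2, 2155 and 5732 CPM in members and at 172, 313 and 445 CPM in granule-poor cells and rose by 2.87 ± 0.25. *Atp5b*, the catalytic subunit of ATP synthase, lay at 1122, 1238 and 1506 CPM against 382, 460.0 and 528 CPM and rose by 1.50 ± 0.14. *Ndufa4* rose by 1.57 ± 0.18, *Sdhb* of complex II by 1.47 ± 0.15, *Uqcrfs1* of complex III by 1.33 ± 0.17 and *Cox4i1* of complex IV by 0.91 ± 0.14. All of these are encoded in the nucleus. *Ppargc1a* was too low to test. The symbol *Atp5o* stands on 2 gene identifiers in the files and was left out of the list's counts; the identifier that was tested (ENSMUSG00000022956) rose by 1.26 ± 0.16.

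The transcripts of the mitochondrial genome moved in the same direction, and the 10% limit cut through the cells. Among cells inside the limit, the median mitochondrial share was 6.36% in members and 3.83% in granule-poor cells. With the limit lifted, 380 droplets met the other conditions of the rule, and 154 of them (40.5%) had been over the limit, against 396 of 13156 (3.01%) granule-poor droplets. The droplets over the limit had a median of 11219 UMIs and 5 of the 6 genes, and *Acp5* at 16621 CPM, next to 8382 CPM in the members. In the 11 pools with at least 10 such droplets, the median share was 9.17% ± 1.78 (SD) against 3.95% ± 0.51 in granule-poor droplets, and it was higher in 11 of 11 pools (exact sign-flip permutation test, two-sided p = 0.000977, the smallest that 11 pools allow). The pool ranges did not overlap, 7.17% to 12.4% against 3.16% to 4.88%. A high mitochondrial share can also mark damaged cells, whose part in this difference was not tested.

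**Figure D4:**
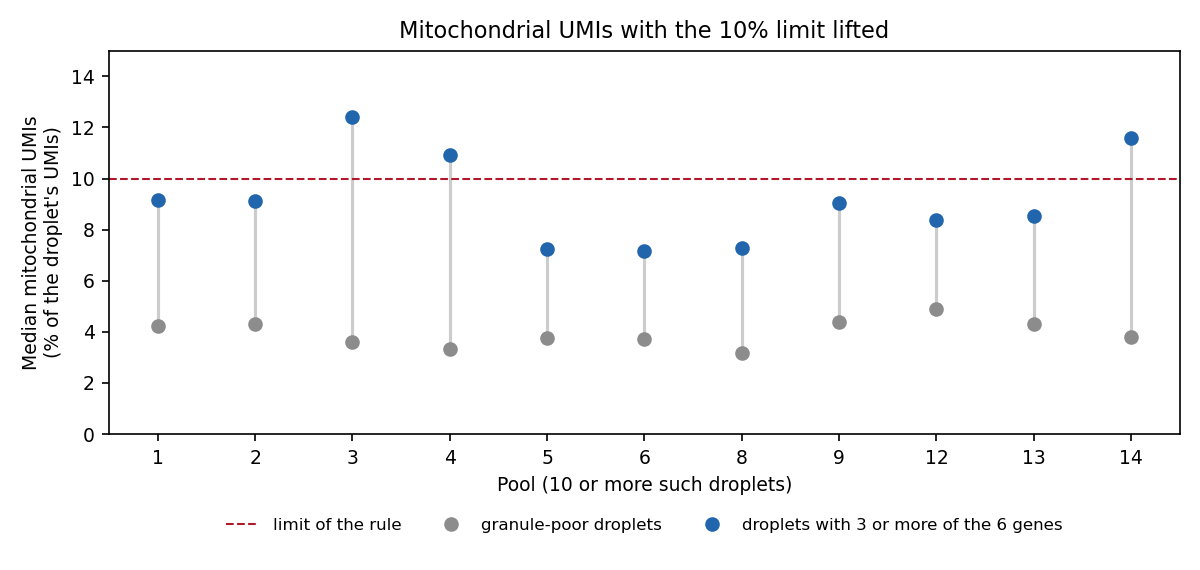
Median mitochondrial UMIs (% of a droplet's UMIs, vertical axis) in the 11 pools with at least 10 droplets holding 3 or more of the 6 genes, with the 10% limit lifted for both classes. Blue points are those droplets, grey points granule-poor droplets and the dashed line the limit; blue lies above grey in 11 of 11 pools and above the limit in pools 3, 4 and 14.

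Without the limit, the comparison covered 11 pools and called 1466 genes higher (15.2%) and 2024 lower (21.1%) of 9614 tested. The resorption list then had 13 genes higher and 2 lower of 15, the V-ATPase list 14 and 2 of 17, and the energy list 18 and 0 of 20.

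Osteoclasts send signals to osteoblasts, known as coupling factors. Of 13 listed, 10 were tested, and 5 rose, 2 fell and 3 were not called, with a median of 0.65. *Sema4d* lay at 83.3, 99.7 and 159 CPM in members and 28.5, 33.9 and 45.1 CPM in granule-poor cells and rose by 1.76 ± 0.17. *Sphk1*, the kinase that makes sphingosine 1-phosphate, rose by 1.87 ± 0.23 and *Pdgfb* by 1.37 ± 0.18. *Efnb2* and *Lif* rose by 2.15 ± 0.49 and 1.75 ± 0.44, with 0 CPM in the lowest pool of members, and *Lif* was not called without pool 1 (1.16), without pool 2 (1.51) or by DESeq2, nor *Efnb2* without pool 1 (1.76). The direction of the list's median was not stable, since in the 10 pools with at least 5 members 4 were higher and 4 lower of 9 (all genes 10.3% and 13.3%), with a median of -0.32, and the summed level of the list was higher in members in 2 of 6 pools. Without the mitochondrial limit 5 were higher and 4 lower of 10. *Cxcl16* fell by 2.14 ± 0.23 and *Tgfb1* by 0.70 ± 0.17 on the log2 scale, the latter not called in the 3 pools with at least 20 members (-0.44). *Wnt10b*, *Bmp6* and *Ctf1* were too low to test, and *Cthrc1*, *Slit3* and *C3* were not called.

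Macrophage genes fell in members almost throughout. Of 15 listed, 14 fell, 0 rose and *Cd68* was not called, with a median of -2.60. The complement gene *C1qa* lay at 0, 121 and 555 CPM in members and at 1274, 1489 and 1682 CPM in granule-poor cells, a log2 difference of -3.52 ± 0.50 (adjusted p = 8.9e-05). *Cd14*, a receptor for bacterial lipopolysaccharide, fell by 2.99 ± 0.25, *Lyz2*, the lysozyme of the lineage, by 2.56 ± 0.27, and *Adgre1*, which encodes F4/80, by 2.04 ± 0.18 on the log2 scale. *Cd68*, a lysosomal membrane protein of macrophages and osteoclasts alike, lay at 346 to 900.4 CPM in members and 411 to 887 CPM in granule-poor cells. Without the mitochondrial limit *Cd68* was called higher, with 1 gene of the list higher and 14 lower of 15 (all genes 15.2% and 21.1%).

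Of 11 genes of lipid-handling macrophages, 9 fell, 0 rose and 2 were not called (*Lpl* and *Cd63*), with a median of -1.62. *Cd36*, a fatty acid receptor, fell by 3.78 ± 0.23 and *Gpnmb* by 2.32 ± 0.16 on the log2 scale. *Cd63* was called higher in the 3 pools with at least 20 members (0.30) and without the mitochondrial limit (0.25), and *Lpl* in the 10 pools with at least 5 members (0.64). Of 11 genes of monocytes and MHC class II, 8 were tested and 5 fell, with 0 higher. By DESeq2 3 were lower, where 929 of 10110 genes were, and without the replicate block 2, where 897 of 10110 were. *Cx3cr1*, *Plac8*, *Itgax* and *Chil3* had UMIs in 1.77%, 3.98%, 5.31% and 6.64% of members. They passed the filter on low counts through the granule-poor cells, so their lower level in members is no test. Lower were 7 of 9 without pool 1, 6 of 8 with at least 5 members per pool and 7 of 8 without the mitochondrial limit. Of all genes 8.05%, 13.3% and 21.1% were lower there, and 0 genes of the list were higher. In the 3 pools with at least 20 members, 2 of 6 were higher (*Cd74* and *H2-Aa*, at 1.93 and 2.65) and 2 lower, next to 9.22% and 8.44% of all genes. *Cx3cr1* lay at 0 to 4.30 CPM in members and 16.1 to 29.8 CPM in granule-poor cells. The class II genes varied among pools far more than between classes, with *Cd74* between 3.08 and 1944 CPM in granule-poor cells and 12.2 and 160.2 CPM in members, and *H2-Ab1*, called lower at -2.15 ± 0.56, had the opposite sign in those 3 pools (0.08) and was not called without pool 8 (-1.20) or without pool 9 (-2.02).

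Markers of granulocytes and of lymphoid, mast, endothelial and glial cells were low in members, whereas those of stroma were not. Of 12 granulocyte genes, *Mmp8* and *Csf3r* alone passed the filter on low counts, through the granule-poor cells, so their lower level in members is no test. *Csf3r* lay at 0 CPM in members of all 6 pools and 4.48 to 13.9 CPM in granule-poor cells, and the list summed to 2.15 to 10.8 CPM in members and 14.1 to 320.2 CPM in granule-poor cells. Of 12 lymphoid and mast cell genes, *Mcpt8* alone passed it, in the same way, and the list summed to 0 to 9.30 CPM in members. *Cd3e* and *Cd79a* had UMIs in 0 members. Of 6 endothelial and glial genes, 1 was tested and not called (*Pecam1*), with sums of 0 to 16.2 CPM. Stromal genes were present in both classes. Of 11 listed, 10 were tested, 4 fell and 0 rose, and their sum was 3709.7 to 33440.2 CPM in members and 16679.6 to 53731 CPM in granule-poor cells. *Ibsp*, a bone matrix gene of osteoblasts, had 879 to 15761 CPM in members and 6972 to 22348 CPM in granule-poor cells. The number of stromal genes lower in members was 0 of 9 with 10 or more UMIs of *Tyrobp* in both classes (all genes 10.9%), 2 of 10 without pool 9 (8.05%) or without pool 12 (8.59%), and 9 of 10 without the mitochondrial limit (21.1%). The part of stromal RNA carried in these droplets in the results was not tested, and it was lower in members than in the comparison cells in 5 of 6 pools.

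Of 10 cell cycle genes, 0 passed the test in either direction by edgeR and 0 by DESeq2, with a median of 0.47. *Top2a* lay at 4.08 to 269 CPM in members and 30.6 to 77.6 CPM in granule-poor cells, and *Mki67* at 4.08 to 224 CPM and 47.2 to 117 CPM, so members of different pools spread far more widely than the comparison cells. The median turned to -0.14 without pool 8, with 1 gene lower (*Rrm2*, where 9.71% of all genes were lower), and was 0.05 without pool 12 and 0.02 without called doublets. *Birc5* was called higher in the second run (0.80) and after thinning (1.08). In the 3 pools with at least 20 members, 4 of the 10 were lower, where 8.44% of all genes were.

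The genes with the largest changes, in a list or not, were taken by size among those called, changed in the same direction in 6 of 6 pools and at a mean over pools of 50 CPM or more in the higher class. *Rufy4* lay at 32.0, 78.2 and 139 CPM in members and at 0, 0.147 and 0.727 CPM in granule-poor cells. *Mt3*, a metallothionein, lay at 327, 445 and 1097 CPM against 0.410, 1.57 and 4.26 CPM, and *Ankrd2*, a gene known from muscle, at 13.9, 48.8 and 157 CPM against 0, 0.292 and 0.485 CPM. These 3 had log2 fold changes of 8.75 ± 0.47, 8.42 ± 0.45 and 8.30 ± 0.45. They were near 0 in granule-poor cells and passed the filter on low counts through the members. Their higher level in members is therefore no test, and the size of the change is not well known. *Nyap2*, the neuropeptide gene *Nmb*, *Coq8a*, which acts in coenzyme Q synthesis, *Kbtbd11* and *Fam109a* rose by 4.66 to 5.15. The lysosome-related *Rab38* rose by 5.62 ± 0.36, and *Slc9b2*, *Itgb3* and *Ppargc1b*, given above with their lists, completed the 12. *Nyap2*, *Rab38*, *Ppargc1b*, *Nmb*, *Kbtbd11* and *Itgb3*, at medians of 1.05 to 3.59 CPM in granule-poor cells, were low there too. They passed the filter on low counts through the members, so their higher level is no test either.

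Among the 12 that fell most, the interferon-inducible *AW112010* lay at 0 CPM in the median pool of members and at 5.95, 14.8 and 483 CPM in granule-poor cells, where a single pool carried its mean, and the scavenger receptor *Marco* lay at a median of 0 and 58.2 CPM. The chemokines *Cxcl2*, *Ccl4* and *Ccl2* fell, with log2 fold changes of -4.01 ± 0.43, -3.94 ± 0.38 and -3.84 ± 0.37, as did the cytokine *Il1b* at -3.88 ± 0.33. *Cxcl2* lay at 41.8, 130.2 and 483 CPM in members and 2116, 2390 and 4027 CPM in granule-poor cells. *Saa3*, *Fcrls*, *Pld4*, *Gzme*, *Il7r* and the macrophage elastase *Mmp12* were the others, with changes from -4.51 to -3.81, of which *Gzme* was not called without the replicate block. *AW112010*, *Marco* and *Saa3*, at a median of 0 CPM in members, passed the filter on low counts through the granule-poor cells, so their lower level is no test. *Fcrls*, *Gzme*, *Il7r* and *Pld4*, at medians of 0.391 to 3.11 CPM in members, were low there too. They passed the filter in the same way, so their lower level is no test either.

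Against all other *Tyrobp* cells, granulocytes included, 907 genes were higher (8.96%) and 998 lower (9.85%) of 10128 tested. This comparison shares its members and most of its other cells with the one above, so it is no second test. The resorption, V-ATPase and energy lists had the same counts as before. The 6 genes that fell most by the same rule were *Wfdc21*, *Lcn2*, *Chil3*, *Pglyrp1*, *Olfm4* and *BC018473*, of which *Lcn2*, a protein of neutrophil granules, lay at 0 to 4.65 CPM in members and 18.6 to 1849.7 CPM in the other cells. All of them but *Chil3* had a median of 0 CPM in members. These genes passed the filter on low counts through the other cells, so their lower level is no test. The rule's limit on granule UMIs bears directly on this comparison.

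Members differed among themselves along the number of rule genes detected. *Ctsk* stood at 2627 CPM in the 80 cells with 3 genes, at 6642, 8070 and 10422 CPM in those with 4, 5 and 6, and at 322, 438 and 969 CPM in granule-poor cells with 0, 1 and 2. *Itgb3* was at 32.4, 126, 300.4 and 383 CPM inside the rule and was at 4.73, 3.66 and 5.86 CPM outside it. *Nfatc1* stood at 233 CPM with 3 genes and at 569.8, 595 and 606 CPM with 4, 5 and 6. *Lyz2* stood at 5562, 2122, 575 and 159 CPM and *C1qa* at 438, 90.6, 34.6 and 35.8 CPM. *Cd68* lay between 518 and 889.5 CPM from 0 to 6 genes. The median depth was 10713.5, 11551.5, 11876.5 and 20849 UMIs from 3 to 6 genes, and the mitochondrial share 5.45%, 6.55%, 7.71% and 6.89%. Depth moved with this order, and its part in it was not tested. These levels pool the UMIs of all pools, of which pool 1 gave 28 of the cells with 3 genes and 63 of those with 4 or more. In the 8 pools with at least 3 members of each kind, members with 4 or more genes stood above those with 3 in 8 of 8 pools for *Ctsk*, *Itgb3* and *Nfatc1*, and below them in 7 of 8 for *Lyz2* and in 6 of 8 for *C1qa*. *Ctsk* lay at 1240.4, 2445 and 5492 CPM with 3 genes and at 3071, 7431 and 10734 CPM with 4 or more. The strata are set by genes of the rule, and these values carry no test.

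**Figure D5:**
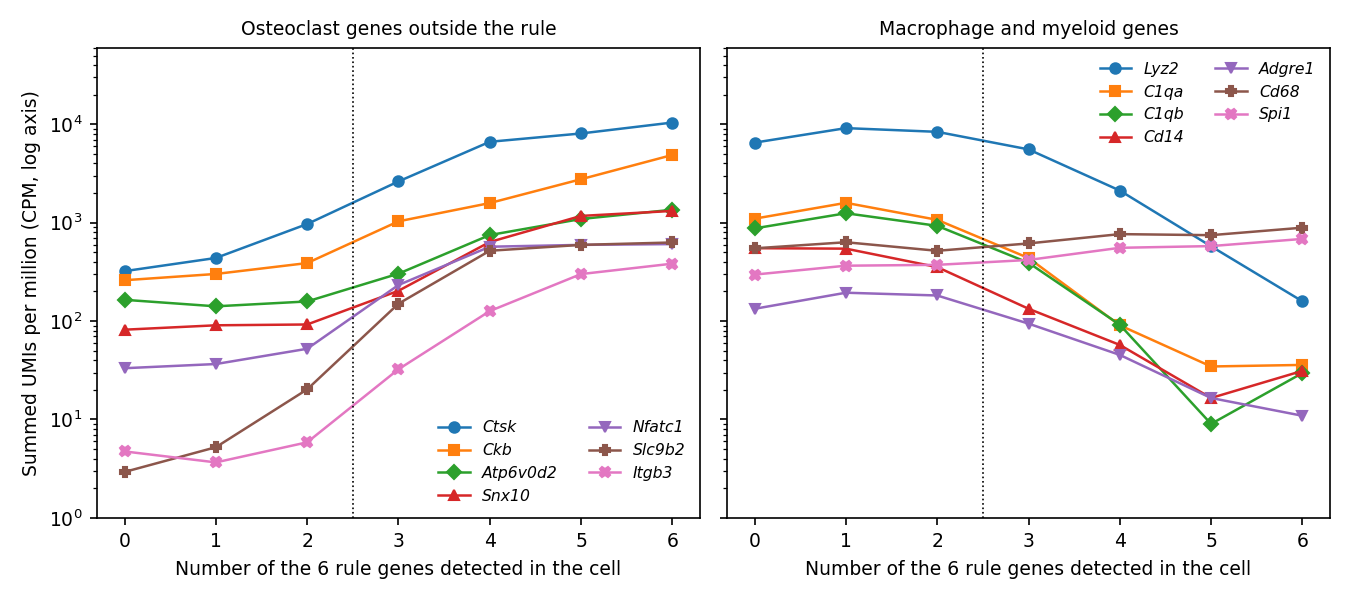
Level of genes outside the rule (summed UMIs per 1000000 UMIs of all cells of a class, log axis) by the number of the 6 rule genes detected in the cell (horizontal axis), for osteoclast genes (left) and macrophage and myeloid genes (right). Cells right of the dotted line are members and those left of it granule-poor *Tyrobp* cells; *Ctsk* stands at 10422 CPM with 6 genes while *Lyz2* stands at 159 CPM.

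Because RANKL, osteoprotegerin and CSF1 come from stromal cells, the share of members among *Tyrobp* cells was set against their level in the stromal reference cells of each of the 16 pools. *Tnfsf11* lay at 3.13 to 11.4 CPM, *Tnfrsf11b* at 17.3 to 66.6 CPM and *Csf1* at 88.9 to 300.04 CPM. The share of members had a Pearson r of 0.61 with stromal *Tnfsf11* (permutation p = 0.0105, adjusted over 6 relations p = 0.063) and a Spearman rho of 0.38 (p = 0.145, adjusted p = 0.50). Leaving out the 2 pools whose *Tnfsf11* lay farthest from its median gave r = 0.52, and leaving out pool 1 gave 0.43. For *Csf1* r was 0.49 (p = 0.0526, adjusted p = 0.158), rho was 0.31 (p = 0.249, adjusted p = 0.50) and r was 0.08 without the 2 farthest pools, so it rests on those pools. For *Tnfrsf11b* r was 0.03 and rho -0.14 (permutation p = 0.908 and 0.607, adjusted p = 0.908 and 0.729). For the ratio of *Tnfsf11* to *Tnfrsf11b* r was 0.34 and rho 0.36 (permutation p = 0.207 and 0.167, adjusted p = 0.310 and 0.50).

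The share also had an r of -0.17 and a rho of -0.22 with the share of *Tyrobp* cells among kept barcodes (permutation p = 0.526 and 0.407, adjusted p = 0.632 and 0.611) and an r of 0.40 and a rho of -0.003 with the median depth of *Tyrobp* cells (permutation p = 0.119 and 0.996, adjusted p = 0.239 and 0.996). None of the 6 relations passed the threshold after adjustment. Pool 1, with the highest share of members before thinning, also had the second highest *Tnfsf11*, at 11.3 CPM, after the 11.4 CPM of pool 9, and the highest *Csf1*, at 300.04 CPM. The share of members was 1.23% in pool 9 and 0.678% in pool 6, where *Tnfsf11* was at 8.47 CPM.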

How the data were processed

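Cell Ranger 5.0.0 with the GRCm38 genome (mm10 in the submitters' processing notes) was used by the authors, who deposited, per pool and run, whole-number UMI counts of genes in called barcodes, not normalized and made before cells were filtered, cleared of doublets or traced to mice. The annotation release is not given in the sources used here. Coordinates came from GENCODE M21, in which 30934 of 31053 gene identifiers matched, and promoters from a table of RefSeq starts (GRCm38.p6), in which 5 of the 12 genes looked up were matched.

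The members, gene lists and tests were chosen with earlier results of these data known. Both runs are of the same droplets, so the first was used and a droplet was counted once. Shares carry exact (Clopper-Pearson) 95% binomial intervals, which cover counting error only. UMIs were summed per pool and class, in pools with at least 10 cells of both, and tested with edgeR 4.0.16 (quasi-likelihood, TMM, filterByExpr, pool as a block, Benjamini-Hochberg adjustment over all genes tested). Each ± after a log2 fold change is its absolute value over the square root of the edgeR F statistic. That value borrows dispersion from other genes and is not the SE of the differences seen in the single pools. The pool numbers pair the samples because both classes come from the same pool of mice and the same library, and every pool's classes deviated together (lowest r = 0.12, median 0.16, other pools -0.04). Pools hold different mice, and whether they were cultured at the same time is not given in the sources used here. With the pool as a block, p-values of the fits measure how the difference between classes varied from pool to pool, with dispersion moderated across genes. The fits were also run on simulated counts, which held no differences between pools. That run does not measure how many changes went uncalled here. Beside listed genes, those named were the 12 per direction with the largest log2 fold change against granule-poor cells, and 6 per direction against all other *Tyrobp* cells, called, of 1 sign in every pool and at a mean of at least 50 CPM in the higher class, leaving out the rule's genes and mitochondrial, Gm, Rik and sex-linked names. Genes named as examples come from the lists.

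Doublets were scored per pool against 2 simulated doublets per droplet (30 principal components, 2000 variable genes, scikit-learn 1.9.0), and as many as 0.8% per 1000 barcodes were marked but kept. Correlations over 16 pools used log2(CPM + 1) and 100000 permutations, two-sided. DESeq2 1.42.0, thinning, other limits and leaving out pools were alternatives, and lifting the mitochondrial limit, a minimum of 5 cells, at least 10 *Tyrobp* UMIs and leaving out pool 1 from correlations were added after seeing the data.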

Additional observations from a re-analysis of the deposited data

Results flagged for a closer look

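In 18 groups of 6 pools looked at (9 genes in 2 classes), 2 held a pool that stood apart from the others, and chance marks about 1 in 20 such groups. Both were of *Car2*, the carbonic anhydrase. Among members, pool 9 stood at 210.5 CPM, and the next highest pool at 79.0 CPM, a gap of 0.69 of the whole range. Among granule-poor *Tyrobp* cells, pool 8 stood at 40.5 CPM and the next at 7.93 CPM, a gap of 0.85 of the range. *Car2* was called higher in members without either pool.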

How the results depend on the processing

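The number of members depended on the rule: 839 with at least 2 of the 6 genes, 146 with at least 4, 146 with 3 of the 5 genes other than *Acp5*, 110 after thinning to 3000 UMIs, 380 with no mitochondrial limit and 399 with neither that nor the upper gene limit, against 226. Another run, a 2% granule limit, ribosomal limits, 1 UMI of *Tyrobp*, no *Mmp9*, no upper gene limit and leaving out doublets gave 155 to 268.

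In the fits thinned to 3000 UMIs, both classes were still chosen on the full counts, so the rule's own dependence on depth remained. There 415 genes were higher and 667 lower than in granule-poor cells, and 409 were higher and 765 lower than in all other *Tyrobp* cells. Without the mitochondrial limit, in 11 pools, the counts were 1466 and 2024 against granule-poor and 1613 and 1833 against all other cells. Without a filter on low counts 794 were higher and 1305 lower than in granule-poor cells. Leaving out each pool in turn gave 695 to 900 higher and 788 to 989 lower, and against all other cells 697 to 891 and 798 to 996. Without the replicate block of pools, the counts were 987 higher and 897 lower, and 906 and 900, and 16 of the 141 named genes called against granule-poor cells lost their call. Against granule-poor cells, thinning kept 110 of the 124 named calls it could test, leaving out doublets 133 of 139 and DESeq2 137 of 141. The named genes include those with the largest changes. Of all calls, thinning, which left 6823 genes tested, kept 389 of 955 higher and 560 of 946 lower. *H2-Ab1* changed sign with at least 20 cells per class (0.0775, and 0.0661 against all other cells), at least 4 of 6 genes (0.56 and 0.55) and without *Mmp9* in the rule (0.50 and 0.49). Under the same 3 settings *Cd74*, not called before, was called higher (1.93, 2.08 and 2.01, and 1.93, 2.08 and 2.02 against all other cells), as was *H2-Aa* (2.65, 3.10 and 3.03, and 2.64, 3.09 and 3.02). *Lpl* was called lower with at least 4 of 6 genes (-0.84 and -0.83) and without *Mmp9* (-0.58 and -0.58). *Top2a* was called lower with at least 20 cells (-0.87 and -0.91), without *Mmp9* (-0.90 and -0.93) and, against all other cells, with at least 4 of 6 genes (-0.93). *Fcer1g* was called lower than in granule-poor cells after thinning (-0.50), and higher than in all other cells with at least 4 of 6 genes (0.38) and without *Mmp9* (0.39). All of these settings but thinning left the same 3 pools (pools 1, 2 and 13), so they are not separate checks. The effect of a stricter rule cannot be told apart there from that of leaving out the other pools. The cause was not tested.

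The relation to *Tnfsf11* passed the threshold with at least 4 of 6 genes (r = 0.62, permutation, adjusted p = 0.044). By rank it did not pass there (rho = 0.46, permutation, adjusted p = 0.276). With members as a share of all kept barcodes, *Csf1* (r = 0.64, permutation, adjusted p = 0.023) and depth (r = 0.66, permutation, adjusted p = 0.035) passed, and the share of *Tyrobp* cells turned to 0.25. By rank, *Csf1* and depth did not pass there (rho = 0.41 and 0.31, permutation, adjusted p = 0.335 and 0.409). Without the 2 pools farthest from the median of each, their r was 0.10 and 0.25. *Tnfrsf11b* turned to -0.16 after thinning and to -0.31 without pool 1, and depth to -0.26 without pool 1. The cause was not tested. With 1 to 3 members in 6 pools, shares there are known only within wide intervals.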
